A study of Homo sapiens with 30 samples.

Results

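The comparison is of 22Rv1 cells kept for 2 h with the CDK9 inhibitor KB742 and of the same cells kept for 2 h with DMSO, its solvent. Its members are the 6 libraries titled KB742 at 2 h or DMSO at 2 h, 3 of each, out of 30 in the series. 22Rv1 is an established human prostate cancer line that grows despite androgen deprivation. Every group, the controls included, first received 800 µM 4-thiouridine (s4U) for 30 min. The 0 h libraries were collected then, and the other cells went on in 800 µM s4U with either DMSO alone, KB742 at 1.2 µM or another CDK9 inhibitor, KI-ARv-03, at 4 µM, and were collected at 2, 4 or 8 h. The compound was taken from the titles, because DMSO stands in the protocol and description of all samples. A treatment field of the KB742 samples reads as a dose above the 1.2 µM of the titles and the protocol, which is the dose used here.

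The P-TEFb kinase CDK9 phosphorylates RNA polymerase II and its pausing factors and so lets polymerase leave the promoter-proximal pause. When CDK9 is inhibited, RNAs that turn over quickly are the first to run down, while stable RNAs persist. SLAM-seq follows new RNA: s4U enters RNA as it is made, iodoacetamide alkylates it, and the alkylated bases are read as C in place of T. Each gene therefore has a level, given in CPM, which is the read count scaled to library size and here rescaled by the trimmed mean of M values (TMM), and a conversion level in percent, which is higher the more of its RNA was made since s4U was added. Both were read at the 3′ ends of transcripts, and the transcript with the highest summed CPM stood for each gene.

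After 2 h with KB742 the RNA of these cells carried less label, and few differences in level passed the test. Conversion fell in 69 genes and rose in none of 8087 tested, while the level fell in 3 genes and rose in none of 11413 tested. The 3 were MIR22HG, the host transcript of the microRNA miR-22, METTL18, a protein histidine methyltransferase, and FGF18, a fibroblast growth factor. Among the 69 were the transcription factors ONECUT2, SOX4, ZBTB16, HOXC9 and NFIC, the co-chaperone gene DNAJB1, and DGCR8, which encodes the partner of DROSHA in microRNA processing. A gene was called where its limma p, adjusted by Benjamini and Hochberg's method across every gene tested, was under 0.05, from 1 fit of all 30 libraries. Whether the replicates are separate cultures is not in the labels, so p-values measure only the spread between these libraries, which may be technical.

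The 6 libraries hold 4800187 to 7064055 reads behind the deposited values, of which 1704726 to 2473558 lie on the transcripts kept, and 12041 to 13704 genes were detected. KB742 replicate 2 stood apart. Of its genes with at least 20 reads, 39.7% had a conversion of exactly 0, against 10.6% to 20.4% in the other 5 libraries, and its counts lay farther from those of replicates 1 and 3 (chi-square per gene 51.2 and 44.6) than those lay from each other (9.04). The calls below are given with it, and each call of a named gene that was lost without it is given with its adjusted p without it. Markers of luminal prostate epithelium summed to 1762 to 1905 CPM with DMSO and 1838 to 2088 CPM with KB742, and those of endothelial cells to at most 0.388 and 0.782 CPM, with PECAM1, VWF, CDH5, KDR, CLDN5 and TEK at 0 in all 6 libraries. Immune markers summed to at most 5.86 and 6.26 CPM, with PTPRC, CD3D, MS4A1, LYZ and NKG7 at 0. Neuroendocrine markers summed to 174 to 442 CPM with DMSO and 248 to 424 CPM with KB742. Basal markers summed to 60.3 to 85.4 and 54.8 to 73.5 CPM, and stromal markers to 27.8 to 47.9 and 16.4 to 43.8 CPM.

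The read-weighted mean conversion was 0.655%, 0.827% and 0.895% in the DMSO libraries and 0.509%, 0.356% and 0.427% in the KB742 libraries. Every KB742 library lay below every DMSO library. The means were 0.792% ± 0.123 (SD, n = 3) and 0.431% ± 0.0766 (SD, n = 3), a ratio of 0.544. An exact two-sided permutation test gave p = 0.1, the smallest that 3 libraries against 3 allow. Without KB742 replicate 2 the ratio was 0.591. Before either treatment, at 0 h, mean conversion was 0.346% ± 0.0602 (SD, n = 3), so the KB742 mean lay closer to the starting point than to the DMSO mean.

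**Figure D1:**
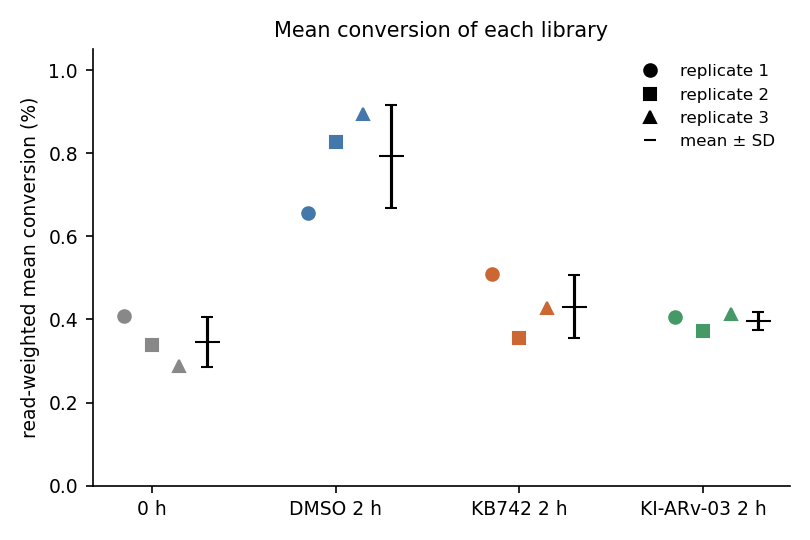
Read-weighted mean conversion in percent (y axis) of each library of 4 groups (x axis); symbols are replicates, and bars show mean ± SD of 3 libraries. The KB742 libraries, 0.356% to 0.509%, sit below all DMSO libraries, 0.655% to 0.895%, and the KI-ARv-03 libraries are shown for reference at their own dose.

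Genes differ widely in how fast their RNA is replaced, so the genes tested on conversion were ordered by their conversion in the DMSO libraries of 4 h, which take no part in the comparison, and divided into 10 groups of equal size, here called deciles. In the lowest decile (755 genes, at most 0.18% at 4 h) the median conversion at 2 h was 0.117% with DMSO and 0.0773% with KB742, a ratio of 0.663. In the highest decile (755 genes, at least 5.27% at 4 h) it was 4.13% with DMSO and 2.10% with KB742, a ratio of 0.508. The difference thus went from -0.0313 to -1.86 percentage points at the median, and the share of genes with a lower mean conversion with KB742 from 62.5% to 88.7%. At 0 h the medians were already 0.0757% in the lowest decile and 0.902% in the highest. The ratios above therefore do not compare label gained since 0 h. Of the 69 called genes, 41 lay in the highest decile and none in the lower 2. Calls were made on the arcsine scale, where the same ratio gives a larger difference at a higher conversion. The placing of the calls therefore does not show that the ratio fell more there. The medians of single libraries overlapped between the groups in the lowest decile, where KB742 replicate 1 was at 0.079% and DMSO replicate 1 at 0.072%, while KB742 replicate 2 was at 0.017%. They did not overlap in the highest, where the DMSO libraries were at 3.38%, 4.38% and 4.82% and the KB742 libraries at 2.56%, 1.29% and 1.95%.

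The levels of the same deciles moved apart too, by small amounts. The median log2 difference in level between KB742 and DMSO was 0.09 in the lowest decile and -0.17 in the highest, against 0.01 over all genes tested on level. The share of genes with a lower level with KB742 was 38.0% in the lowest decile and 66.1% in the highest. Set against the DMSO mean, the highest decile had a median log2 level of -0.12, -0.15 and -0.09 in the KB742 libraries and of -0.05, -0.02 and 0.08 in the DMSO libraries, which did not overlap. Levels are shares of a library, so a loss common to all RNAs would not appear in them, and fewer cells cannot be told apart from less RNA per cell. The order of the deciles is a description with no test. Depth moved with the deciles, the median gene having 132 reads a library in the lowest and 63.5 in the highest, and its part in the pattern was not tested.

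**Figure D2:**
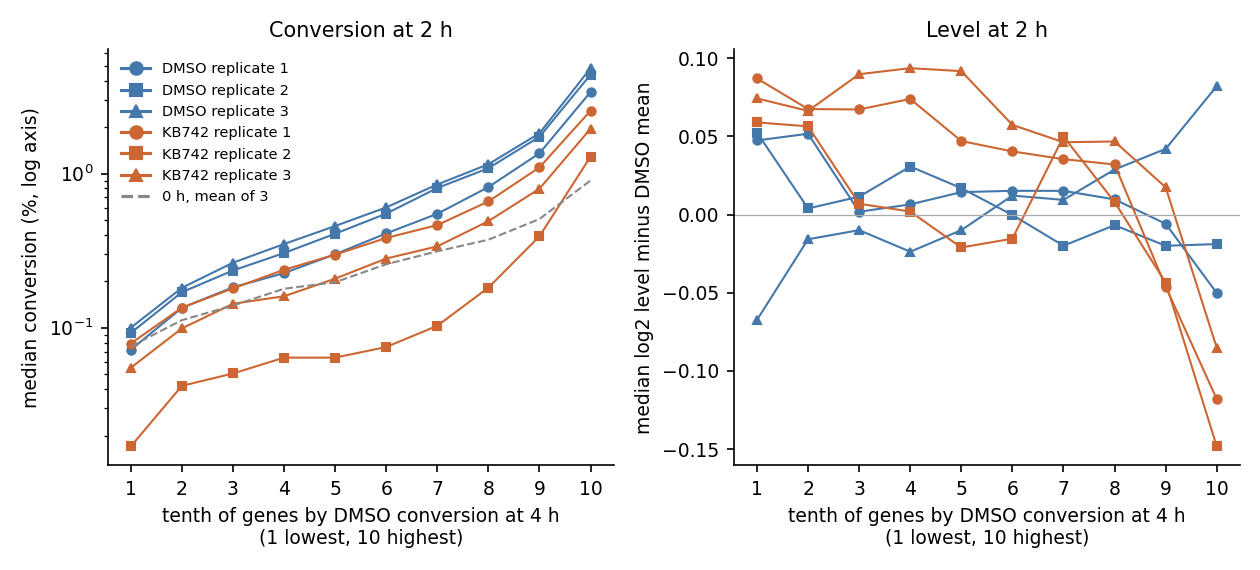
Median conversion in percent on a log axis (left) and median log2 level minus the DMSO mean (right) for each of the 6 libraries, over deciles of genes ordered by conversion with DMSO at 4 h. The dashed line is the 0 h mean, KB742 replicate 2 is the lowest of the 6 libraries on the left, and KB742 replicate 1 runs along DMSO replicate 1 in the lower deciles. In the highest decile the KB742 points lie below the DMSO points in both panels, at 1.29% to 2.56% against 3.38% to 4.82% on the left and at -0.15 to -0.09 against -0.05 to 0.08 on the right.

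The 3 genes whose level fell are 0.0263% of those tested. The 250 bases before their annotated starts are shown here together with those of KLF6 and JUN, regulators of transcription that were also low in level and were picked with a motif match common to both in view. The sequences are from RefSeq on GRCh38.p14, 5′ to 3′ on the strand of the gene, and METTL18 has a second start in the same table. They span chr17:1716211-1716460 on the minus strand for MIR22HG, chr1:169794908-169795157 on the minus strand for METTL18, chr5:171419397-171419646 on the plus strand for FGF18, chr10:3785210-3785459 on the minus strand for KLF6 and chr1:58784048-58784297 on the minus strand for JUN. Capitals mark matches, on either strand, to the TATA-box core TATAAA, to the CCAAT box, to the GC-box core GGGCGG or to TGANNTCA, in which N is any base, and overlapping matches are marked once.
MIR22HG: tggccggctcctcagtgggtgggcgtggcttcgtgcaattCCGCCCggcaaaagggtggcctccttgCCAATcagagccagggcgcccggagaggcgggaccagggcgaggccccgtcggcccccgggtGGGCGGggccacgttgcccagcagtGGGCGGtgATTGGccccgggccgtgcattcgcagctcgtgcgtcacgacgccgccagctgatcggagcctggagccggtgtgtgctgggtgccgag
METTL18: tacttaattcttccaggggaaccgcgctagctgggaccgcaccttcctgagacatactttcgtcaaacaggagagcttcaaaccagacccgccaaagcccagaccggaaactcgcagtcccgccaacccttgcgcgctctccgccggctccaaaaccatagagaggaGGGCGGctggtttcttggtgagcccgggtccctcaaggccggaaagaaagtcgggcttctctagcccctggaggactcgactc
FGF18: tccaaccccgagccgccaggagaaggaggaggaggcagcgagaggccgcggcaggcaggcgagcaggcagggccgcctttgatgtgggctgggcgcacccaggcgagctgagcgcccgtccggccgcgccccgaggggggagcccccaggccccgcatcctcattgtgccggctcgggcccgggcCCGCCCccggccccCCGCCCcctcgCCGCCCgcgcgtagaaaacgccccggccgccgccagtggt
KLF6: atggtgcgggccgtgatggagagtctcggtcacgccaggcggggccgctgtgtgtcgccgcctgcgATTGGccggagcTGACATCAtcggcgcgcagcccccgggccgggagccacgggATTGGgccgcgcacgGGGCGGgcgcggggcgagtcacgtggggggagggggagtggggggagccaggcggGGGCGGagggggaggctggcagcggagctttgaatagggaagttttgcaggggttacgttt
JUN: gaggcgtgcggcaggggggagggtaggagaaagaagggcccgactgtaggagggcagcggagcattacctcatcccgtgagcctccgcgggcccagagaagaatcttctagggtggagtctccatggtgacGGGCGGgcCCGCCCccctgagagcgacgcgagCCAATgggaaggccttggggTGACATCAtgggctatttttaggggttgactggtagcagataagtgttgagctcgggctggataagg

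GGGCGG, the core of the GC box, was present in all 5 windows, with 3 matches each in MIR22HG and FGF18, and in 42.6% of 35116 promoter windows of the same length. CCAAT was found in MIR22HG, KLF6 and JUN and in 32.0% of all windows. TGANNTCA covers the ATF type of site but not the shorter AP-1 site, which was not searched for. It was found as TGACATCA in KLF6 and JUN, which were picked with it in view, and in none of the 3 called genes. It was in 10.1% of all windows. TATAAA was in none of the 5 and in 10.7% of all. The GC content of the 5 windows was 59.6% to 78.8%, against a median of 58% over all windows.

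MIR22HG was at 45.6, 38.4 and 29.3 CPM with DMSO and at 9.84, 3.91 and 8.08 CPM with KB742. All 3 KB742 libraries were lower than any DMSO library, and the log2 difference was -2.28 ± 0.36 (SE), with a limma adjusted p of 0.0107. METTL18 was at 13.5, 22.1 and 19.2 CPM with DMSO and at 3.28, 1.56 and 3.85 CPM with KB742. Its log2 difference was -2.33 ± 0.39 (adjusted p = 0.0146), again with no overlap. FGF18 was at 6.21, 11.3 and 6.39 CPM with DMSO and at 0.365, 0 and 1.15 CPM with KB742, and its log2 difference was -2.60 ± 0.47 (adjusted p = 0.0315). Its KB742 values rest on a few reads or none, and its call was lost with a pseudocount of 0.25 CPM (adjusted p = 0.260), with edgeR (adjusted p = 0.335) and with DESeq2 (adjusted p = 0.0516).

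In the cells of 0 h these transcripts were lower than after 2 h with DMSO. MIR22HG was at 12.3 ± 3.90 CPM, METTL18 at 8.15 ± 2.67 CPM and FGF18 at 0.068 ± 0.118 CPM (SD, n = 3 each), against means of 37.8, 18.3 and 7.95 CPM with DMSO at 2 h. With KB742 the means were 7.28, 2.90 and 0.506 CPM, so MIR22HG and METTL18 were below their 0 h means and FGF18 stayed near the floor from which it rose with DMSO. METTL18 and FGF18 had too few reads with KB742 for a conversion value. MIR22HG had 2 such values, 19.4% and 33.9%, on both sides of the DMSO values of 26.6%, 25.6% and 30.2%, and its conversion was not called (adjusted p = 0.948).

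The same 3 genes were called lower again in the separate libraries of 4 h and 8 h, where 0.0789% and 0.596% of all genes tested were called lower. The log2 differences were -2.39 ± 0.36 and -2.60 ± 0.36 for MIR22HG, -2.68 ± 0.39 and -2.47 ± 0.39 for METTL18, and -4.22 ± 0.47 and -3.32 ± 0.47 for FGF18. None of the 3 differed between 8 h and 2 h in the test of that difference (adjusted p of 0.967, 0.988 and 0.935). The calls at 2 h were not stable to the choice of libraries: none was left without DMSO replicate 1, without DMSO replicate 2 or without KB742 replicate 2, and 1 was left without DMSO replicate 3 and 1 without KB742 replicate 1. Without KB742 replicate 2 the log2 differences were -1.95 for MIR22HG, -2.05 for METTL18 and -2.34 for FGF18, with adjusted p of 0.281, 0.308 and 0.350.

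Below the threshold lay a set of genes whose 3 KB742 libraries were all lower than the 3 DMSO libraries. Such separation was seen in 424 genes that were lower and 425 that were higher, 3.72% of the genes tested in either direction, so on its own it carries no direction. GADD45A, a stress-response gene, was at 16.1, 23.3 and 20.8 CPM with DMSO and at 7.66, 0.391 and 5.77 CPM with KB742 (log2 difference -2.26 ± 0.49, adjusted p = 0.262). KLF6, a Krüppel-like zinc finger factor, was at 59.2, 74.5 and 101 CPM and at 22.6, 24.6 and 28.9 CPM (-1.56 ± 0.35, adjusted p = 0.294). These KB742 values of KLF6 were close together, and KB742 replicate 2 was in the middle of them.

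PNISR, an abundant arginine- and serine-rich protein gene, was at 516, 599 and 473 CPM with DMSO and at 147, 274 and 277 CPM with KB742 (-1.23 ± 0.29, adjusted p = 0.303). JUN, an AP-1 subunit, was at 28.5, 34.2 and 30.4 CPM and at 9.48, 3.13 and 17.3 CPM (-1.79 ± 0.45, adjusted p = 0.399). DNAJB1 was at 48.2, 46.6 and 52.2 CPM and at 19.7, 25.4 and 13.5 CPM (-1.33 ± 0.37, adjusted p = 0.763). None of these passed the threshold at 2 h, and KLF6, HIC2 and DNAJB1 were called lower at both later times, with log2 differences at 8 h of -2.44 ± 0.35, -3.55 ± 0.47 and -2.60 ± 0.37. The transcriptional repressor gene HIC2 was at 10.2, 10.1 and 8.52 CPM with DMSO and at 1.46, 3.52 and 0.770 CPM with KB742 at 2 h (-1.97 ± 0.47, adjusted p = 0.303). The others of lowest p, KCNMB3, ZNF682 and C8orf44, were all under 11 CPM, and their log2 differences were -2.04, -1.67 and -1.89.

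No gene was called higher by limma, edgeR or DESeq2, and by limma 157 genes were higher and 203 lower at an unadjusted p under 0.05, together 3.15% of those tested. The splicing kinase gene CLK2 was at 7.30, 5.82 and 11.7 CPM with DMSO and at 24.1, 15.3 and 35.8 CPM with KB742, without overlap (log2 difference 1.46 ± 0.51, adjusted p = 1). It was called higher at 4 h and at 8 h (2.75 ± 0.51 and 3.05 ± 0.51), where 0.035% and 1.24% of genes were called higher. At 0 h it was at 38.3 ± 13.0 CPM (SD, n = 3), above its DMSO means at 2, 4 and 8 h of 8.28, 2.85 and 2.58 CPM. RBM23, which encodes an RNA-binding protein, was at 17.9, 23.7 and 7.99 CPM with DMSO and at 76.2, 46.1 and 55.0 CPM with KB742 (1.87 ± 0.52, adjusted p = 0.763), while MORC3, EBLN2, PAQR8 and ATAD5 were higher at levels under 8 CPM.

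**Figure D3:**
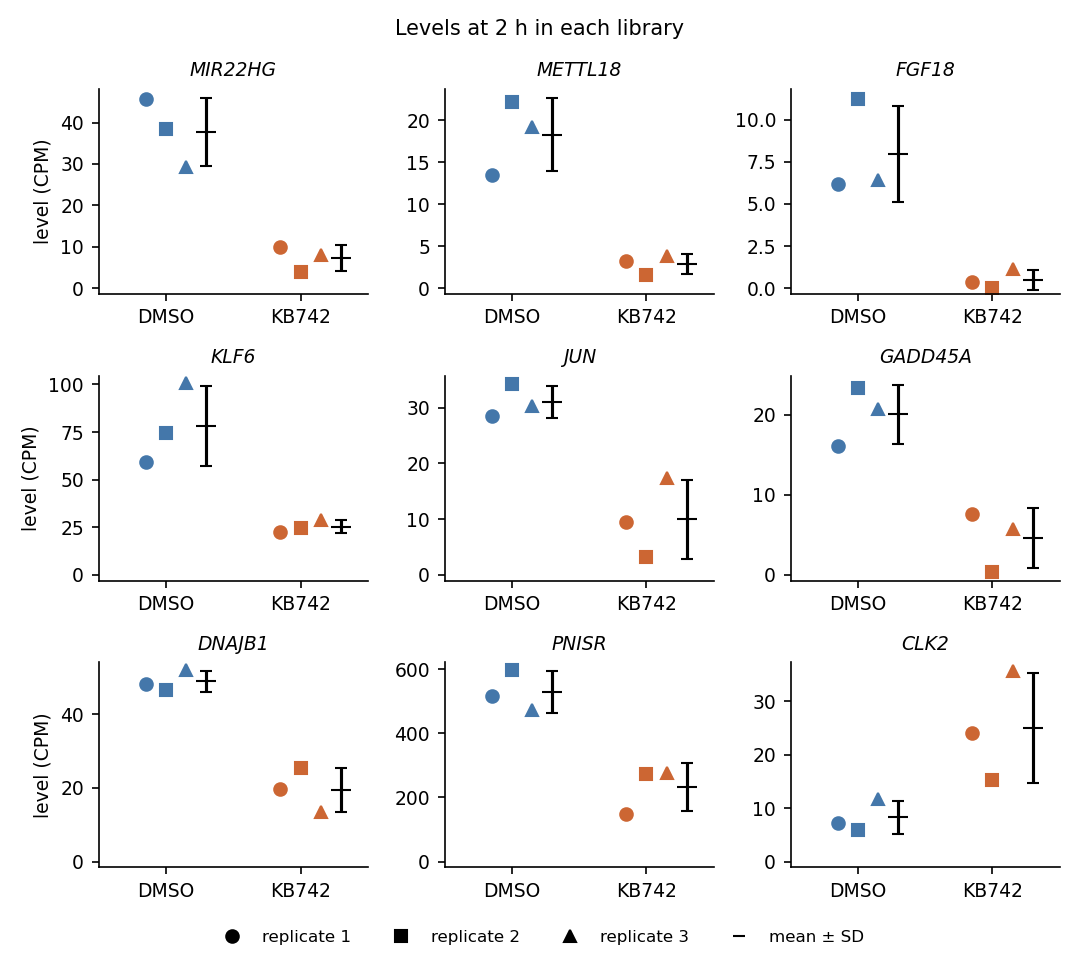
Level in CPM (y axis) of 9 genes in the 3 DMSO and 3 KB742 libraries of 2 h; symbols are replicates and bars show mean ± SD. MIR22HG, METTL18 and FGF18 were called lower; the other 6 do not overlap between groups but were not called, and CLK2 is the one that is higher with KB742.

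The 69 genes whose conversion fell are 0.853% of those tested. Their median conversion was 4.70% with DMSO, 0.759% with KB742 and 0.750% at 0 h, against 0.560%, 0.316% and 0.248% over all genes tested. Single-library medians of the 69 were 4.13%, 4.65% and 4.81% with DMSO and 1.12%, 0.454% and 0.606% with KB742. In 66 of the 69 all 6 libraries had a value, and none of the 66 overlapped between the groups. Of all genes with 6 values, 19.3% were lower and 1.21% higher without overlap. These genes were called on this contrast, so their medians describe the calls and test nothing.

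On a log2 scale 7 genes were called, and with only the 6 libraries of the 2 groups in the fit none was. Before correction 1130 genes were lower and 39 higher at an unadjusted p under 0.05, together 14.5%, and no other tool was run on conversion. Of the 8087 genes 6187 had the lower estimate with KB742. Without KB742 replicate 2 the calls went from 69 to 17, all among the 69, and the 67 of the 69 still tested were all lower. There were 13 calls with DMSO replicate 3 left out, 41 with DMSO replicate 2 left out and 38, of which 1 was higher, with KB742 replicate 3 left out.

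Among the 15 largest falls in percentage points were those of ZBTB16, HOXC9, ATN1, ZNF3 and ZNF480. ZBTB16, a BTB zinc finger factor, was at 35.5%, 35.4% and 31.2% with DMSO and at 10.9%, 26.9% and 22.4% with KB742 (limma adjusted p = 0.0247). HOXC9, a homeobox factor, was at 14.5%, 23.6% and 22.3% and at 8.79%, 3.22% and 7.48% (adjusted p = 0.0216, and 0.183 without KB742 replicate 2). Groups did not overlap for either, and in ZBTB16 it was KB742 replicate 1, not replicate 2, that was lowest, on 22 reads. The ZBTB16 call was kept under 5 of 13 alternatives. It was lost without KB742 replicate 1 and without any 1 of the DMSO libraries. Conversion of ZBTB16 was not called at 4 h or 8 h (limma adjusted p of 0.448 and 0.153). ATN1, which encodes the co-repressor atrophin-1, was at 12.1%, 8.90% and 5.96% and at 1.58%, 3.26% and 1.24% (adjusted p = 0.00683). The zinc finger genes ZNF3 and ZNF480 went from means of 18.7% and 14.2% to 7.01% and 4.81%.

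Of the luminal lineage transcription factors, a list of 19 genes, 2 of the 15 tested on conversion fell, where 0.853% of all genes tested did. ONECUT2, a homeobox factor, was at 5.55%, 5.54% and 7.92% with DMSO and at 2.85%, 1.16% and 2.56% with KB742 (adjusted p = 0.000271). SOX4, an HMG-box factor, was at 11.5%, 16.7% and 15.7% and at 8.82%, 5.94% and 8.46% (adjusted p = 0.0247, and 0.183 without KB742 replicate 2). Both groups stayed apart in both genes. Over the 15 the median was 3.52% with DMSO and 2.19% with KB742, and 13, or 86.7%, had the lower estimate, against 76.5% of all genes tested. Over all genes tested the DMSO median was 0.560%, and the share called in the list was not set against genes of like conversion.

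The calls of DNAJB1, TOB2, PIM2, KBTBD7 and CDKN1B were lost without KB742 replicate 2, and REL could not be tested without it. DNAJB1 was at 28.2%, 25.7% and 32.9% with DMSO and at 18.7%, 2.25% and 16.7% with KB742 (adjusted p = 0.0268, and 0.269 without replicate 2), so that replicate 2 held the low end. TOB2, an antiproliferative gene of the BTG/TOB family, was at 13.8%, 10.3% and 14.7% and at 4.02%, 4.35% and 2.06% (adjusted p = 0.0247, and 0.0665 without KB742 replicate 2). TOB2 was the one called gene of the 13 tested of a list of signalling brakes, which also holds the DUSP, SPRY and SOCS families. Of all genes tested 0.853% were called, a share not taken over genes of like conversion. In the list 10 of 13, or 76.9%, had the lower estimate, near the 76.5% of all genes tested. The kinase gene PIM2 was at 8.37%, 14.9% and 9.97% and at 4.68%, 0% and 1.15% (adjusted p = 0.0268, and 0.188 without replicate 2). KBTBD7, an adaptor of a ubiquitin ligase, went from 15.8% to 5.54% at the mean (adjusted p = 0.0282, and 0.267 without replicate 2). CDKN1B, the gene of the cell-cycle inhibitor p27, went from 9.97% ± 0.893 to 3.83% ± 2.55 (SD, n = 3), with a limma adjusted p of 0.0311, and 0.307 without replicate 2. REL, a subunit of NF-kB, went from 12.4% to 1.19% with 2 KB742 values.

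DGCR8 and EXOSC4 were close to 0 with KB742. DGCR8 was at 7.39%, 10.2% and 13.1% with DMSO and at 0%, 0.655% and 0% with KB742 (adjusted p = 0.00208). EXOSC4, a subunit of the RNA exosome, was at 8.28%, 8.27% and 11.1% and at 1.38%, 1.07% and 0% (adjusted p = 0.00683). Conversion of 0 was thus read in 2 of 3 KB742 libraries of DGCR8 and in replicate 3 of EXOSC4, not only in replicate 2. IFI35, an interferon-induced gene, went from a mean of 13.7% to 1.87%, and TMEM177, which encodes a mitochondrial membrane protein, from 17.7% to 4.61%. IST1, an ESCRT-III gene, went from 9.49% to 1.29% and SOBP from 7.75% to 0.550%, and without KB742 replicate 2 their adjusted p were 0.103 and 0.175.

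The smallest adjusted p belonged to NXPH4, a neurexophilin gene, at 4.84%, 7.80% and 3.03% with DMSO and at 0.315%, 0% and 0.563% with KB742 (adjusted p = 3.54e-05). It was called under 12 of the 13 alternatives in which it was fitted. Of other called genes, MAP2K7, a kinase that activates JNK, went from 8.15% to 1.31%, ZBTB7A from 10.3% to 4.42%, the chromatin remodeller gene INO80 from 7.49% to 1.61%, and POLE3, a histone-fold subunit of DNA polymerase epsilon, from 3.37% to 1.16%. In YIF1B, RFX5 and COA5 conversion was listed at 0 in all 3 KB742 libraries, against means of 1.78%, 1.35% and 1.26% with DMSO, and without KB742 replicate 2 their adjusted p were 0.138, 0.175 and 0.183. NXPH4, MAP2K7, ZBTB7A, INO80, POLE3, YIF1B, RFX5, COA5, CDKN1B and REL were singled out after their values had been seen.

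Among the called genes with the highest levels the falls were small in percentage points. PEBP1, which encodes a Raf kinase inhibitor protein, was at 0.652%, 0.692% and 0.768% with DMSO and at 0.414%, 0.387% and 0.374% with KB742 (adjusted p = 0.0422, and 0.183 without KB742 replicate 2). PRDX2, a peroxiredoxin gene, was at 0.288%, 0.256% and 0.435% and at 0.033%, 0.021% and 0.051% (adjusted p = 0.0247, and 0.143 without KB742 replicate 2). The groups did not overlap in either gene, and KB742 replicate 2 was the lowest library of PRDX2 but not of PEBP1. KHSRP, an RNA-binding protein gene, CYCS, the gene of cytochrome c, and NFIC went from means of 1.19%, 1.18% and 2.25% to 0.386%, 0.386% and 0.818%, and without KB742 replicate 2 their adjusted p were 0.234, 0.235 and 0.235.

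Calls on level were rare at 2 h among all genes, so their absence among the 69 says little about these genes. None of the 69 was called on level, where 1 of the 8087 genes tested on conversion was. With KB742 50 of the 69 had the lower level, against 3869 of the 8087. The median log2 difference of the 69 was -0.24, against 0.02 over the genes tested on conversion. TOB2 was at 59.2, 55.1 and 102 CPM with DMSO and at 29.2, 28.2 and 38.1 CPM with KB742 (log2 difference -1.11 ± 0.36, adjusted p = 1), and it was called lower at 4 h and 8 h (-2.25 ± 0.36 and -2.72 ± 0.36). IST1 was at 38.3, 35.7 and 30.4 CPM and at 25.5, 31.3 and 23.9 CPM (-0.36 ± 0.31), and was called lower at 8 h (-2.46 ± 0.31). SOX4, ONECUT2 and DGCR8 differed in level by -0.08 ± 0.43, -0.14 ± 0.30 and -0.30 ± 0.36.

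The 69 genes had fewer exons and shorter genomic spans, but not shorter transcripts in like measure. Their median number of exons was 6 and their median genomic span 10588 bases, against 9 exons and 26090 bases over the genes tested on conversion, and 7.25% had a single exon against 1.80%. Median transcript length was 2657 against 2803 bases, and the median 3′ UTR was longer, at 1076 against 913 bases. The highest decile by conversion with DMSO at 4 h, to which 41 of the 69 belong, had medians of 5 exons and 15171 bases. In that decile 6.82% had a single exon, and the median 3′ UTR was 1231 bases. The pentamer ATTTA, the core of AU-rich elements, was in the 3′ UTR of 60.6% of the 66 with an annotated one and of 65.1% of all. These are descriptions from GENCODE models, and no share was tested.

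**Figure D4:**
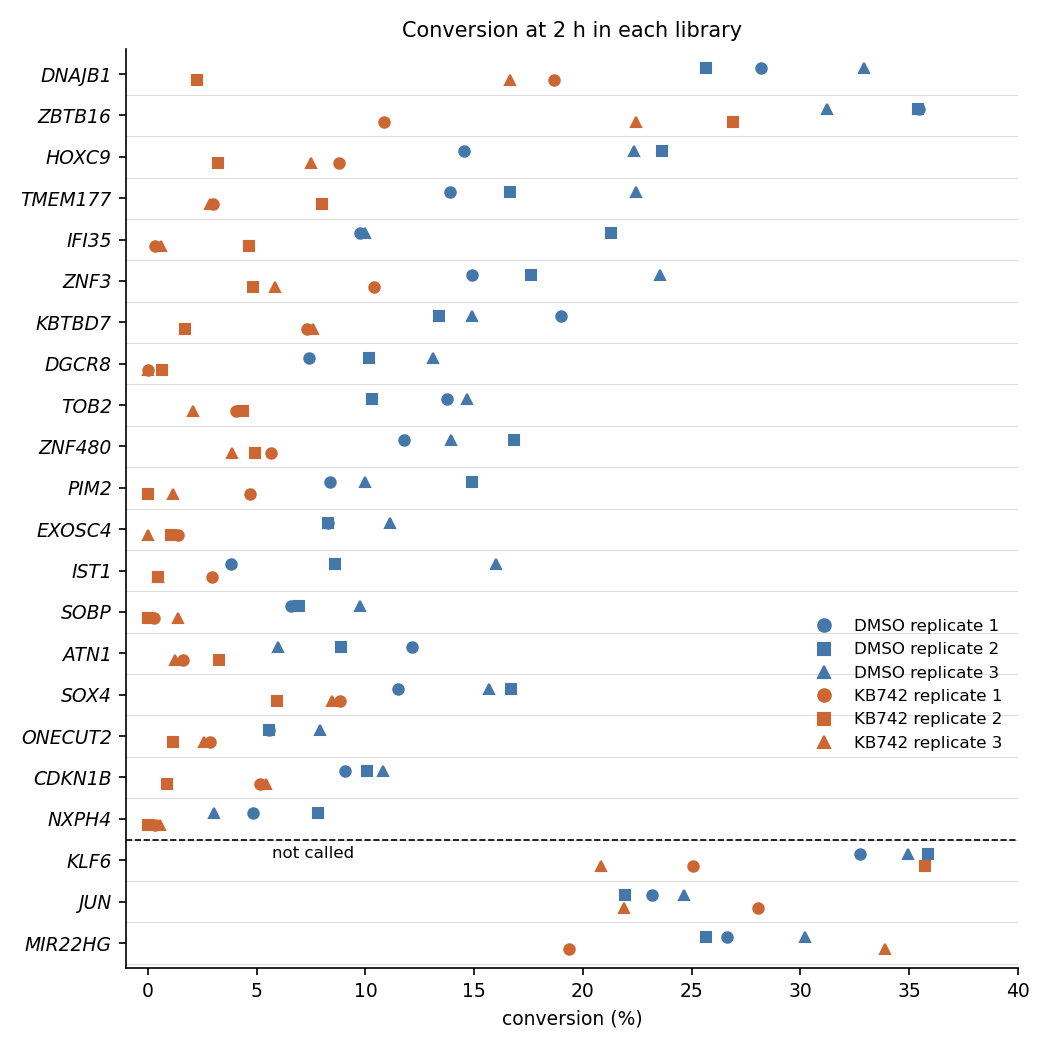
Conversion in percent (x axis) of 22 genes in each DMSO and KB742 library of 2 h, with symbols for replicates. The 19 genes above the dashed line were called lower and show no overlap between groups; KLF6, JUN and MIR22HG below it overlap, and JUN and MIR22HG have 2 KB742 values each.

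KLF6 and JUN, low in level without a call, had no called change in conversion at 2 h. KLF6 conversion was 32.7%, 35.9% and 34.9% with DMSO and 25.1%, 35.7% and 20.8% with KB742, which overlapped (unadjusted p = 0.0178, adjusted p = 0.234 in limma), and its conversion was called lower at 4 h and 8 h (adjusted p of 0.00211 and 0.0220). JUN was at 23.2%, 21.9% and 24.6% and at 28.0% and 21.9%, with too few reads in KB742 replicate 2 (adjusted p = 0.860). Both stood far above their 0 h means of 8.74% and 4.96%. Over the list of immediate early and AP-1 genes the median conversion was 19.6% with DMSO and 14.9% with KB742 (7 tested, 0 called). The median log2 level difference was -0.43 (14 tested, 0 called, 10 or 71.4% lower). Of all genes tested 0.853% were called on conversion and 0.0263% on level, and 49.2% had the lower level, so 0 calls in so few genes say little.

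Higher conversion with KB742 was not called for any gene with all 6 libraries, and PRMT3 was called higher with KB742 replicate 3 left out (adjusted p = 0.0496). The 5 genes of lowest p in that direction were PRMT3, DERL1, NF1, KLHL36 and THBS1. DERL1, an endoplasmic reticulum degradation gene, was at 0.622%, 0.241% and 0.127% with DMSO and at 1.38%, 1.20% and 1.40% with KB742 (adjusted p = 0.157). Its groups did not overlap, but at 4 h its means were 1.91% with DMSO and 0.556% with KB742 (adjusted p = 0.0383), which is the other direction. In PRMT3 and NF1 all DMSO values were 0.

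The level of the kinase itself was not called. CDK9 was at 4.75, 3.49 and 9.59 CPM with DMSO and at 4.74, 8.21 and 4.62 CPM with KB742 (log2 difference 0.04 ± 0.40). The groups overlapped, and its reads were too few for a conversion test. Log2 level differences of CCNT1, HEXIM1, MCL1 and XIAP were 0.31 ± 0.32, 0.21 ± 0.34, 0.47 ± 0.40 and 0.26 ± 0.24, and of KLK3 0.26 ± 0.46, and MYC, at 1.83, 10.1 and 7.46 CPM and at 4.74, 0 and 2.31 CPM, was too low to be placed (-1.27 ± 0.59, adjusted p = 1). Conversion of CCNT1, the cyclin T1 partner of CDK9, was 10.4%, 9.66% and 10.4% with DMSO and 6.48%, 6.23% and 5.88% with KB742, which did not overlap and was not called (adjusted p = 0.283).

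Gene lists that bear on transcription and on the cell cycle had no called level, where 0.0263% of all genes tested were called. Of 32 P-TEFb, 7SK and pause-release genes, 31 were tested on level and 27 on conversion. Their median conversion was 0.605% with DMSO and 0.634% with KB742. The median of the differences within each gene was -0.201 percentage points, against -0.197 over all genes tested. Of the 27, 20 or 74.1% were lower, against 76.5% of all genes tested. Conversion of PMEPA1, which dampens TGF-beta signalling, was 3.56%, 3.46% and 4.27% with DMSO and 2.66%, 1.55% and 2.47% with KB742 (adjusted p = 0.150). G2 and mitosis genes had medians of 0.272% and 0.294%, with 11 of 23, or 47.8%, lower, against 76.5% of all genes tested. Their median difference within a gene was -0.016 percentage points.

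The other lists are read against all genes tested, of which 76.5% had the lower conversion estimate and 19.3% of those with 6 values were lower without overlap. Ribosomal protein genes had medians of 0.186% and 0.129% (65 tested, 0 called, 50 or 76.9% lower), and nuclear-encoded respiratory chain genes of 0.241% and 0.153% (56 tested, 45 or 80.4% lower). Among the latter the complex I gene NDUFB9 was called at 1.33% and 0.230% (adjusted p = 0.0465, and 0.267 without KB742 replicate 2). MYC-activated genes had medians of 0.747% and 0.273% (29 tested, 0 called, 27 or 93.1% lower). Sterol and lipid synthesis genes had medians of 0.668% and 0.285% (20 tested, 0 called, 19 or 95.0% lower), and 9 of the 19 with 6 values did not overlap. INSIG1, which retains the sterol sensor SCAP in the endoplasmic reticulum, missed the threshold at 1.30%, 1.27% and 3.49% against 0.709%, 0% and 0.296% (adjusted p = 0.0503). Genes named ZNF, of which 97 were tested, had medians of 2.79% and 1.25% with 88 lower and 3 called (3.09%, against 0.853% of all), ZNF687, ZNF3 and ZNF480. Over all genes tested the DMSO median was 0.560%, and the share called among ZNF genes was not set against genes of like conversion. ZNF687, singled out after its values were seen, had an adjusted p of 0.0499, and of 0.184 without KB742 replicate 2.

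The 69 genes were followed in the libraries of 4 h and 8 h, which the calls did not use except through the shared estimate of spread. At 4 h 64 of them could be tested, all 64 were lower with KB742 and 56 were called, where 17.4% of all genes tested were called lower. At 8 h 55 could be tested, 54 were lower and 48 were called, where 34.6% of all were called. Their median conversion went from 4.70% at 2 h to 7.47% and 11.7% with DMSO and from 0.759% to 1.73% and 1.57% with KB742. RNA that converts fast is called more readily at any time, and these shares were not set against genes of like conversion.

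**Figure D5:**
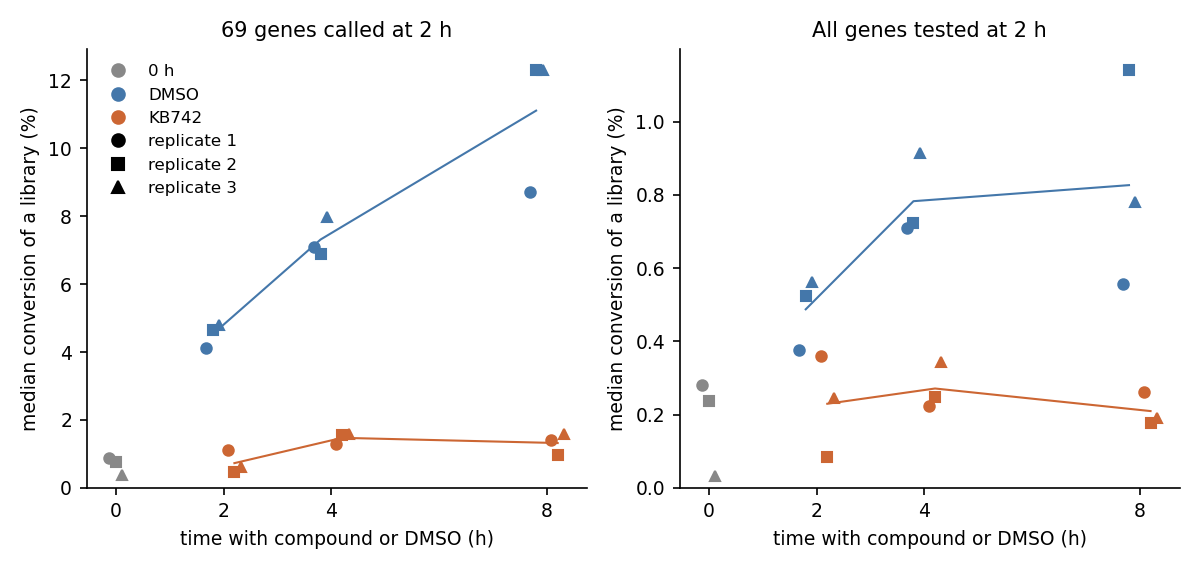
Median conversion in percent of each library (y axis) against time in h (x axis) over the 69 genes called at 2 h (left) and over all genes tested at 2 h (right); symbols are replicates and lines join group means. On the left the KB742 libraries stay between 0.454% and 1.58% while the DMSO libraries go from 4.13% or more at 2 h to 8.71% or more at 8 h.

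The conversion difference, KB742 minus DMSO, was lower at 8 h than at 2 h in 287 genes and higher in 1 (4.66% and 0.0162% of 6157 tested), by the test of the difference between the times. That test takes differences on the arcsine scale, where the same ratio gives a larger difference at a higher DMSO conversion. On a log2 scale it called 0 genes, so the count does not show that the ratio changed. In PPP2R2A, a regulatory subunit of protein phosphatase 2A, the 2 h values were 3.05%, 5.11% and 3.93% with DMSO and 1.61%, 1.19% and 1.80% with KB742 (adjusted p = 0.145), and the 8 h means were 36.7% ± 7.02 and 3.44% ± 1.60 (SD, n = 3). A lower difference is not always a larger one: KLHL36 and DERL1 were higher with KB742 at 2 h and lower at 8 h. The 1 gene with a higher difference at 8 h, MAN2A2, had means of 2.23% and 0.0720% at 2 h and of 0.414% and 0.977% at 8 h, and its 2 h call was lost without KB742 replicate 2 (adjusted p = 0.103). On level the effect differed between the times in 1 gene of 11413 (0.00876%), CUL1, the scaffold of SCF ubiquitin ligases. It was at 77.1 ± 11.3 and 61.9 ± 8.71 CPM at 2 h and at 9.86 ± 2.20 and 33.1 ± 2.17 CPM at 8 h (SD, n = 3), with DMSO and KB742 in that order. That call was lost without KB742 replicate 1 or DMSO replicate 3 of 2 h, and MAN2A2 and CUL1 were singled out after their values had been seen.

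KI-ARv-03 at 4 µM was compared with the same 3 DMSO libraries, so the 2 comparisons share their controls, and the doses differ. Side by side, mean conversion of a library was 0.431% ± 0.0766 with KB742 and 0.396% ± 0.0220 with KI-ARv-03 (SD, n = 3). Calls on conversion were 69 lower for KB742 and 67 lower for KI-ARv-03, 0.821% of the genes tested with the latter. Log2 level differences with KB742 and KI-ARv-03 were -2.28 and -1.73 for MIR22HG, -2.33 and -2.42 for METTL18, -2.60 and -2.87 for FGF18, and -1.56 and -2.11 for KLF6. Against 0 h, conversion was higher in 50 of 8506 genes with KB742 and in 705 of 8312 with DMSO, 0.588% and 8.48%, comparisons that share the 0 h libraries.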

How the data were processed

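SLAM-seq was made with a 3′-end kit from total RNA of 22Rv1 cells, per the labels' protocols, and mapped to hg19, per the submitters' processing notes. Aligner and conversion caller: not given in the sources used here. The first measure of the deposited table is a signal headed CPM: all of its values were whole multiples of 1 step per library (100% within 0.05 of a whole number), from which reads were recovered. The second is a fraction headed conversion, deposited without its numerator and denominator. Spike-in RNA was added per the labels, and its values were not used here.

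Of 50925 RefSeq identifiers 99.2% matched a symbol, and unmatched ones (0.478% of reads) were left out. The transcript with the most reads stood for a gene, which gave 22352 genes. Reads shared between near-identical genes could be split, and strand use is not given. Levels were tested with limma 3.58.1 (R 4.3.3) on log2(CPM + 1) after edgeR 4.0.16 TMM scaling and filterByExpr (minimum count 10). The median gene's log2 difference had a 95% interval of 0.865 to either side. Reads carry no molecular identifiers. For conversion, square roots were arcsine-transformed and fitted in limma, with values behind fewer than 20 reads missing, at least 2 values a group, and variances trended over depth. Both models were fitted to 30 libraries in 10 groups. They were also run on simulated data with the same spread for every library, which does not cover a library that stands apart. Exact permutation tests and the rest were run in Python 3.11.15 (scipy 1.17.1, numpy 2.4.6, pandas 2.3.3, matplotlib 3.10.9).

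Members and the 31 gene lists were chosen with earlier results of these data known. Named genes are all called on level, the 10 lower and 5 higher of lowest p without overlap, the 15 largest called falls in conversion without overlap, the 5 called with the highest levels, the 5 of lowest p with higher conversion, called or at most 2 lowest-p members of each list, and CDK9, CCNT1, HEXIM1, KLK3, MYC, MCL1 and XIAP. Some genes covered by this rule are not reported here. Alternatives covered scaling, pseudocount, filters, edgeR, DESeq2 1.42.0, the conversion scale, the groups fitted, the replicate number and each library left out.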

Additional observations from a re-analysis of the deposited data

Results flagged for a closer look

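The effect of KB742 differed between 8 h and 2 h, by the test of that difference in limma, in 1 gene on level and in 288 genes on conversion. The conversion test is of differences on the arcsine scale, and on a log2 scale it called 0 genes. On level it was CUL1 (adjusted p = 0.00973). On conversion the genes under the naming rule, or singled out after their values were seen, were PPP2R2A (adjusted p = 3.47e-08), POLE3 (adjusted p = 8.74e-08), ONECUT2 (adjusted p = 4.88e-06), PMEPA1 (adjusted p = 0.000187), DERL1 (adjusted p = 0.00259), NFIC (adjusted p = 0.00326), MAN2A2 (adjusted p = 0.00499), XIAP (adjusted p = 0.00570), PNISR (adjusted p = 0.00688), ZBTB10 (adjusted p = 0.0108), ATN1 (adjusted p = 0.0153), KLHL36 (adjusted p = 0.0389), GAPDH (adjusted p = 0.0397) and MAP2K7 (adjusted p = 0.0413). In all of these but MAN2A2 the difference was lower at 8 h. In ONECUT2 the 8 h means were 18.6% ± 2.29 with DMSO and 2.69% ± 0.180 with KB742 (SD, n = 3), and in POLE3 18.8% ± 2.05 and 3.45% ± 0.413 (SD, n = 3).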

How the results depend on the processing

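Calls on level at 2 h numbered 5 under the deposited scaling, where the median log2 difference of all genes moved from 0.01 to -0.14, and 0 with only the 6 libraries of the groups in the fit. They were 0 to 3 with 1 library left out, and 0 without the 3 libraries that stand apart (0 h replicate 3, KB742 replicate 2 of 2 h and KI-ARv-03 replicate 1 of 4 h), an alternative chosen after seeing the data. Calls on conversion numbered 42 with at least 10 reads, 7 on a log2 scale, 0 with only the groups compared, 37 without the 3 libraries, and 13 to 93 with 1 library left out. The genes called in full were lower in estimate under every alternative in which they were tested. The difference in mean conversion kept its direction, from -0.430 to -0.310 with 1 library left out. The change from 2 h to 8 h was called on level in 2 genes under the deposited scaling, in 4 with DESeq2, in 0 with only the groups compared and 0 without the 3 libraries, and in 0 to 7 with 1 library left out. On conversion it was called in 191 genes with at least 50 reads, 0 on a log2 scale, 111 with only the groups compared, 575 without the 3 libraries, and 155 to 488 with 1 library left out. The cause of these shifts was not tested. With the replicate number as a block 3 genes were called on level and 76 on conversion, 1 and 276 for the change between times, and the mean conversion difference stayed at -0.362. The numbers do not pair the libraries: same-numbered deviations correlated at -0.519, -0.462 and -0.158 over 4417 genes. Depth limits both measures: the median gene tested on conversion had 99.5 reads a library, so a missing call does not show an unchanged gene.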
